A study of Homo sapiens with 2 samples.

Results

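Chromosome 19 carries more C2H2 zinc finger genes than any other human chromosome, and the accessibility of these genes was read from peak lists of the breast cancer cell line CAMA-1. The members were all protein-coding genes of GENCODE release 44 on chromosome 19 whose symbol is ZNF followed by a number, which gave 249 of the 20033 protein-coding genes of the annotation, 3 of them readthrough symbols that join neighbouring genes. Chromatin was profiled by ATAC-seq, which uses Tn5, an enzyme that cuts accessible DNA and tags it with adapters for sequencing, in 2 biological replicates of 50000 untreated, adherent CAMA-1 cells each, a luminal epithelial line. Both replicates form a single condition, so gene sets were described side by side and no condition was compared. The line carries its own copy number changes, which were not analysed here and which also set the number of reads over a region.

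A C2H2 zinc finger protein reads DNA through a row of short zinc-binding modules, the fingers, which are encoded back to back in a long last exon. Many of these proteins also carry a KRAB box, which recruits TRIM28 and with it the histone methyltransferase SETDB1 and the HP1 proteins. Many KRAB proteins bind transposable elements, and some are known to silence them. The genes arose by repeated tandem duplication and lie in clusters on both arms of chromosome 19, with closely related neighbours. Their 3′ finger exons are known to carry repressive histone marks in many cell types while their start sites are open.

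Peaks were listed with a fold enrichment over background, from which the height of each peak was recovered as the number of reads stacked at its highest base. Replicate 1 held 245736 peaks, 8453 of them on chromosome 19, and replicate 2 held 259745, 8757 of them on chromosome 19. The lowest listed height was 11 stacked reads and the median was 35 in both replicates, so a gene without a peak is a gene below this threshold and not a gene shown to be closed. The lists do not give library depth, and intervals on shares of genes (95%, Wilson) cover counting error only. All 8 luminal epithelial marker genes had a peak at a transcription start site (TSS) in both replicates, among them GATA3 (209 and 225 reads) and FOXA1 (368 and 407). Among marker genes of blood, endothelium and fibroblasts, PTPRC, CD3E, SPI1 and PECAM1 had none, whereas CDH5, COL1A1 and PDGFRB had a TSS peak of 264 to 318 reads in both replicates. The part of other cells in any value given here was not tested.

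The promoters that the results turn on are shown here, 250 bp before to 50 bp after the TSS on the coding strand (RefSeq, GRCh38.p14, with an entry for 218 of the 249 members). Capitals mark an ETS core (CCGGAAG) or an NF-Y box (CCAAT) on either strand. ZNF564 (chr19:12551433-12551732, minus strand) had the tallest member TSS peak of replicate 2. ZNF430 (chr19:21020407-21020706, plus strand) and ZNF85 (chr19:20923001-20923300, plus strand) are neighbouring paralogues, the former with and the latter without a peak. ZNF91 (chr19:23395422-23395721, minus strand) and ZNF208 (chr19:22010894-22011193, minus strand) form a like pair, and ZNF667 (chr19:56477296-56477595, minus strand) is a CpG-rich promoter without a peak.
ZNF564, peak: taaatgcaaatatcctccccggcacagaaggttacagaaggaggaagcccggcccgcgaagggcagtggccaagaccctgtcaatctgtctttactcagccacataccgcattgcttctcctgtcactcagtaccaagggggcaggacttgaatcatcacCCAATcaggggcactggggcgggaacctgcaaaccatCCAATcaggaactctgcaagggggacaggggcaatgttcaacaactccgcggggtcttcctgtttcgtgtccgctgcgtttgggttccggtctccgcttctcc
ZNF430, peak: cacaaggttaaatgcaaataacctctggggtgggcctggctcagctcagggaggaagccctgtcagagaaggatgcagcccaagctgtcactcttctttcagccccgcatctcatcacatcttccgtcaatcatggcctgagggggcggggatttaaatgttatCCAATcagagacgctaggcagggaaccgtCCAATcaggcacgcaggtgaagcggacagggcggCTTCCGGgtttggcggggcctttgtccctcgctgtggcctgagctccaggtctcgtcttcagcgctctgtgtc
ZNF85, no peak: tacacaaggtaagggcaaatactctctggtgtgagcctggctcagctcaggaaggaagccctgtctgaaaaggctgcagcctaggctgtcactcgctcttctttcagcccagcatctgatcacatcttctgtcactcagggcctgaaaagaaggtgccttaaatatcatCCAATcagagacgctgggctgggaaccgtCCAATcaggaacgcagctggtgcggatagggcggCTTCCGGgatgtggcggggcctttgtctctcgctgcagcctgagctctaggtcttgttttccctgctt
ZNF91, peak: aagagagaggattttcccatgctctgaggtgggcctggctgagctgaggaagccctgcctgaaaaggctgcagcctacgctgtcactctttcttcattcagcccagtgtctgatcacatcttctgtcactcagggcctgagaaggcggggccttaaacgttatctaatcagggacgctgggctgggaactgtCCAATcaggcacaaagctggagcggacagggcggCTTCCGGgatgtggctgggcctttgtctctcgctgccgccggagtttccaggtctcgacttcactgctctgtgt
ZNF208, no peak: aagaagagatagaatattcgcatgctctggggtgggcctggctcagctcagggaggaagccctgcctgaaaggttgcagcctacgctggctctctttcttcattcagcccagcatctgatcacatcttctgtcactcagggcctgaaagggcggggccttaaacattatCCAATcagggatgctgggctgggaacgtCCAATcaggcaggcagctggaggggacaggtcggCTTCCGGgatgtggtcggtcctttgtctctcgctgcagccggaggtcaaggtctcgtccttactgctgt
ZNF667, no peak: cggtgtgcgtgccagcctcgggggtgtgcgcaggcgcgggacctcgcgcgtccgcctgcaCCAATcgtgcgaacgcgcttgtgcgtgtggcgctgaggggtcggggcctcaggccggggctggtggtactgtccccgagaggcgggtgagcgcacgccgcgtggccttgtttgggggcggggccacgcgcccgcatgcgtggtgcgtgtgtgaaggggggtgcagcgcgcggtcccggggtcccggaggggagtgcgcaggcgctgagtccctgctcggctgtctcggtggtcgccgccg
The windows of ZNF430 and ZNF85 were 80.8% identical in a global alignment, and those of ZNF91 and ZNF208 were 85.7% identical. All 4 held the ETS core and at least 1 NF-Y box, so these letters did not separate the open from the peakless paralogue. The ZNF667 window differed in kind, with 42 CpG dinucleotides against 9 to 13 in the other 5 windows.

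Most members were open at their start sites. A peak within 1 kb of any annotated TSS was found for 208 members in replicate 1 and 209 in replicate 2, and for 207 (83.1%, 78.0 to 87.3) in both. The background was 79.3% of all protein-coding genes, 80.9% of the other 1227 genes of chromosome 19 and 87.2% of 266 ZNF genes of other chromosomes, so the share of open members lay close to that of genes in general. No peak was listed at 39 members in either replicate. The other 3 had a weak peak in a single replicate, ZNF426 with 19 reads in replicate 1, and ZNF814 with 28 and ZNF132 with 18 reads in replicate 2.

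Peak heights of the open members were moderate and narrow in range. The median height was 231 reads in replicate 1 and 264 in replicate 2 (mean 247.5 ± 23.3, SD, n = 2), against 207 and 219 for the other genes of chromosome 19, 262 and 282 for ZNF genes elsewhere and 224 and 240 for all protein-coding genes. From the 10th to the 90th percentile the members' mean heights ran from 102 to 434 reads, compared with 51.5 to 522 for all genes. Only 6 open members (2.90%) had a mean height under 50 reads, against 9.55% of all open genes, and 26 (12.6%) reached 400, against 21.0%. The difference between the medians of members and all genes, 247.5 and 232, was smaller than the spread between replicates, whereas the narrower range against all genes was visible at both ends. The upper end was shared with the other genes of chromosome 19, whose 90th percentile was 442.5 reads and of which 14.7% reached 400. Their 10th percentile of 42.1 reads lay below that of the members. At the lower end ZNF genes elsewhere were nearer to the members than to all genes, with 4.31% under 50 reads and a 10th percentile of 82.2. The 90th percentile of ZNF genes elsewhere, 573.6 reads, lay above those of the members and of all genes.

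**Figure D1:**
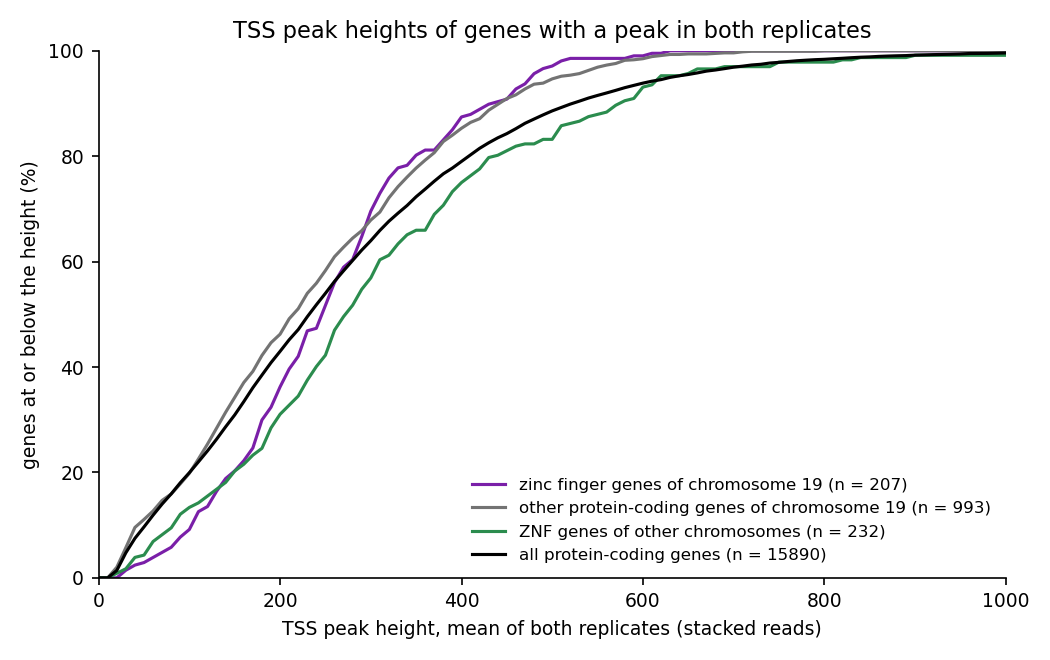
Cumulative share of genes (y axis, %) by TSS peak height (x axis, mean of both replicates in stacked reads) for genes open in both replicates, with 1 line per gene set. The line of the chromosome 19 zinc finger genes starts to the right of that of all genes and ends to its left, with 2.90% of members under 50 reads and 12.6% at 400 or more.

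The strongest and weakest open members differed by more than the replicates did. ZNF564 had 549 reads in replicate 1 and 628 in replicate 2, ZNF574 had 587 and 625, and ZNF77 had 626 and 619. ZNF446 (484 and 527) and ZNF226 (523 and 516) completed the strongest 5, which ranked at the 88.7th to 94.6th percentile of open protein-coding genes. These 5 lie on both arms in different clusters, and ZNF574 stands alone. The weakest were ZNF541 with 24 and 29 reads, ZNF486 with 29 and 27, ZNF135 with 25 and 34, ZNF681 with 30 and 40, and ZNF792 with 47 and 38. No replicate of these 5 reached 50 reads and none of the strongest 5 fell below 484.

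The replicates ranked the open members in nearly the same order. Replicate 2 was the higher in 176 of 207 members (85.0%), with a median ratio of 1.15 over replicate 1 and an interquartile range of 1.06 to 1.21. The same ratio was 1.05 for the other genes of chromosome 19, 1.08 for ZNF genes elsewhere and 1.07 for all genes. The extremes were ZNF730, at 63 and 115 reads, and ZNF784, at 116 and 88. Some members share a peak, since 24 of them start within reach of the same peak as another member, and 195 distinct peaks stood behind the 207 open members in each replicate.

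The canonical start site itself was open in more of the members than of the other genes of the chromosome, and fewer members were covered at 1 kb from it. A peak covered this position in 81.5% of members in both replicates, compared with 63.7% of other chromosome 19 genes, 65.8% and 66.0% of all genes, and 83.8% and 83.5% of ZNF genes elsewhere. At 1 kb downstream, 9.64% of members were covered in both replicates, compared with 20.5% and 20.4% of other chromosome 19 genes and 20.8% and 21.0% of all genes. ZNF genes of other chromosomes were covered there in 20.3% and 20.7%. The median width of the TSS peak was 913 and 943 bp in members, 968 and 962 bp in other genes of chromosome 19, and 1036 and 1049 bp in all genes. In replicate 2 the members' width differed from that of the other chromosome 19 genes by less than the members' own replicates differed.

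**Figure D2:**
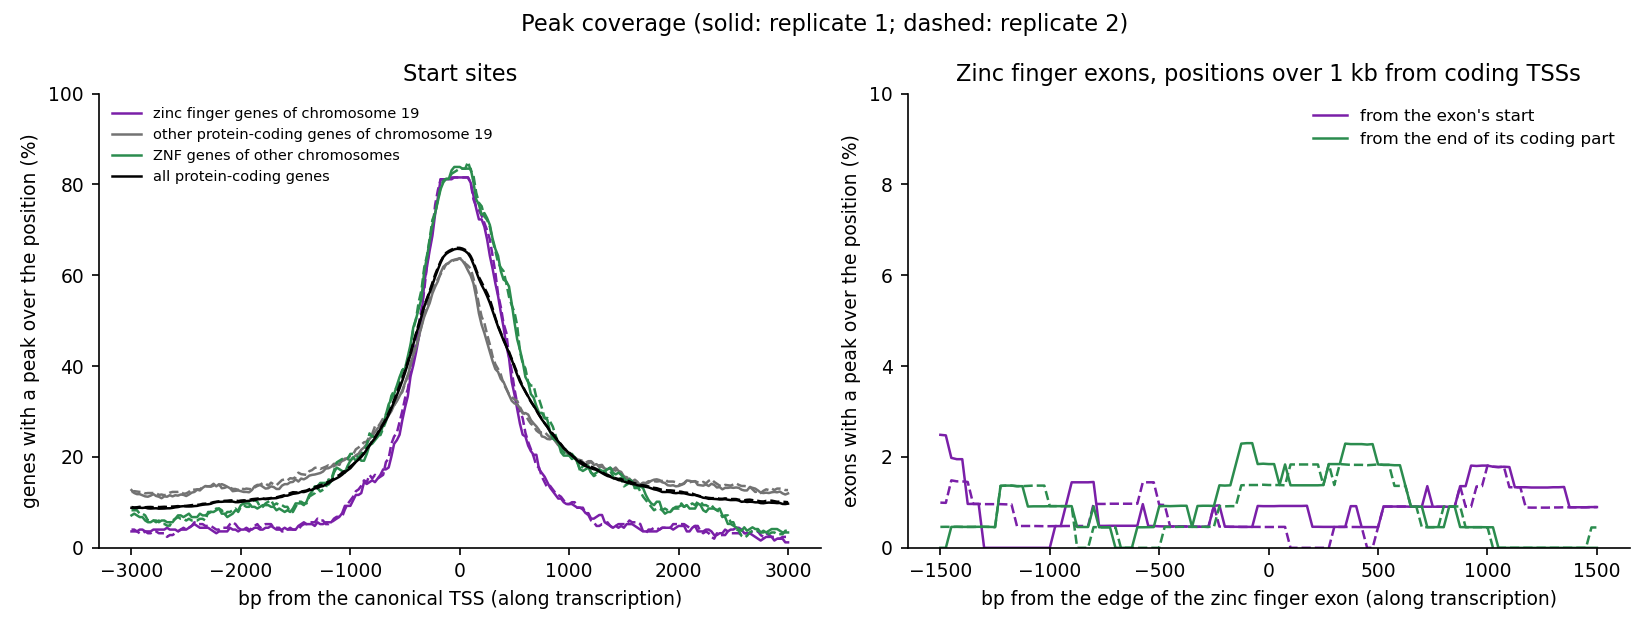
Left, share of genes (%) with a peak over each position around the canonical TSS for 4 gene sets; right, share of zinc finger exons of members (%) with a peak over each position around the exon's start and the end of its coding part, positions within 1 kb of a protein-coding TSS left out. Solid and dashed lines are replicates 1 and 2; the members reach 81.5% at the TSS but fall to 9.64% at 1 kb downstream, and coverage around the zinc finger exons stays below 3%.

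The share of open members differed between promoter sequence classes. A promoter was called CpG-rich where the 500 bp on either side of the canonical TSS had an observed over expected CpG ratio of at least 0.6 and a GC content of at least 55%. Of 159 CpG-rich members, 143 (89.9%, 84.3 to 93.7) were open in both replicates, compared with 97.2% of CpG-rich promoters of other chromosome 19 genes and 92.9% of all. Of 90 CpG-poor members, 64 (71.1%, 61.0 to 79.5) were open, compared with 61.1% on the rest of the chromosome and 59.0% of all. The gap between CpG-rich and CpG-poor promoters was thus smaller in the members than among all genes. In the mostly CpG-poor block nearest the centromere on 19p, 3 of 7 CpG-rich members were open, beside 17 of all its 37 members. Outside that block 140 of 152 CpG-rich members were open, beside 190 of all 212, so the contrast over all members depends in part on this block. Open CpG-poor members had a median height of 224 and 248 reads, against 154 and 162 for all open CpG-poor promoters, and open CpG-rich members had 231 and 265, against 246 and 265.

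The ETS core, the letters bound by factors such as GABPA and ELK1, was found in the promoter window of 44.6% of members, in 31.6% of ZNF genes elsewhere, 15.1% of other chromosome 19 genes and 14.1% of all protein-coding genes. The NF-Y box, the CCAAT sequence, was found in 53.0% of members, 41.7% of ZNF genes elsewhere, 37.1% of other chromosome 19 genes and 36.1% of all genes. Of the 132 members with it, 36 lay in the block nearest the centromere on 19p and 24 in the next cluster on that arm. Pooled over all clusters, the ETS core and the NF-Y box were at least as frequent in the 39 peakless members (56.4% and 64.1%) as in the open ones (42.0% and 50.7%). For the NF-Y box this rested on the block nearest the centromere on 19p. That block held 19 of the 25 peakless members with the box and 17 of the 105 open ones. Outside it the box was less frequent in peakless than in open members. The NRF1 element (TGCGCA) was found in 20.9% of members and 10.8% of all genes, the YY1 core (AAGATGGC) in 6.83% and 4.04%, the SP/KLF box (GGGCGG) in 67.9% and 61.3%, the palindrome TCGCGA in 3.61% and 4.48%, and the TATA box (TATAAA) in 2.81% and 9.71%. Other chromosome 19 genes were near the members for the YY1 core (6.03%) and the SP/KLF box (66.3%), but not for the NRF1 element (12.1%) or the TATA box (7.74%). ZNF genes elsewhere were near the members for the TATA box (3.01%), with the NRF1 element in 15.8%, the YY1 core in 3.01% and the SP/KLF box in 62.4%. All motifs were searched on both strands in the 300 bp windows, matches of different motifs may overlap, and a match is a match of letters only.

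The motifs followed the clusters. The NF-Y box was present in 36 of the 37 members of the block nearest the centromere on 19p and in 24 of 26 of the next cluster on that arm, but in 4 of 23 in the third cluster of 19q. The ETS core was present in 25 of 37 and 2 of 26 in the same 19p clusters. It was found in 25 of 40 and 27 of 43 members in the fourth and sixth clusters of 19q.

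Neighbouring members were joined into clusters wherever the gap was at most 500 kb. This gave 10 clusters of at least 5 members, 4 on 19p and 6 on 19q, which held 235 members, and 14 members lay outside them. The clusters are numbered from the short arm's telomere on 19p and from the centromere on 19q. The share of open members was 72.9% (62 of 85) on 19p and 88.4% (145 of 164) on 19q, whereas the other genes had the opposite order, 87.9% on 19p and 75.1% on 19q. Without its cluster 4, 45 of 48 members of 19p (93.8%, 83.2 to 97.9) were open.

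**Figure D3:**
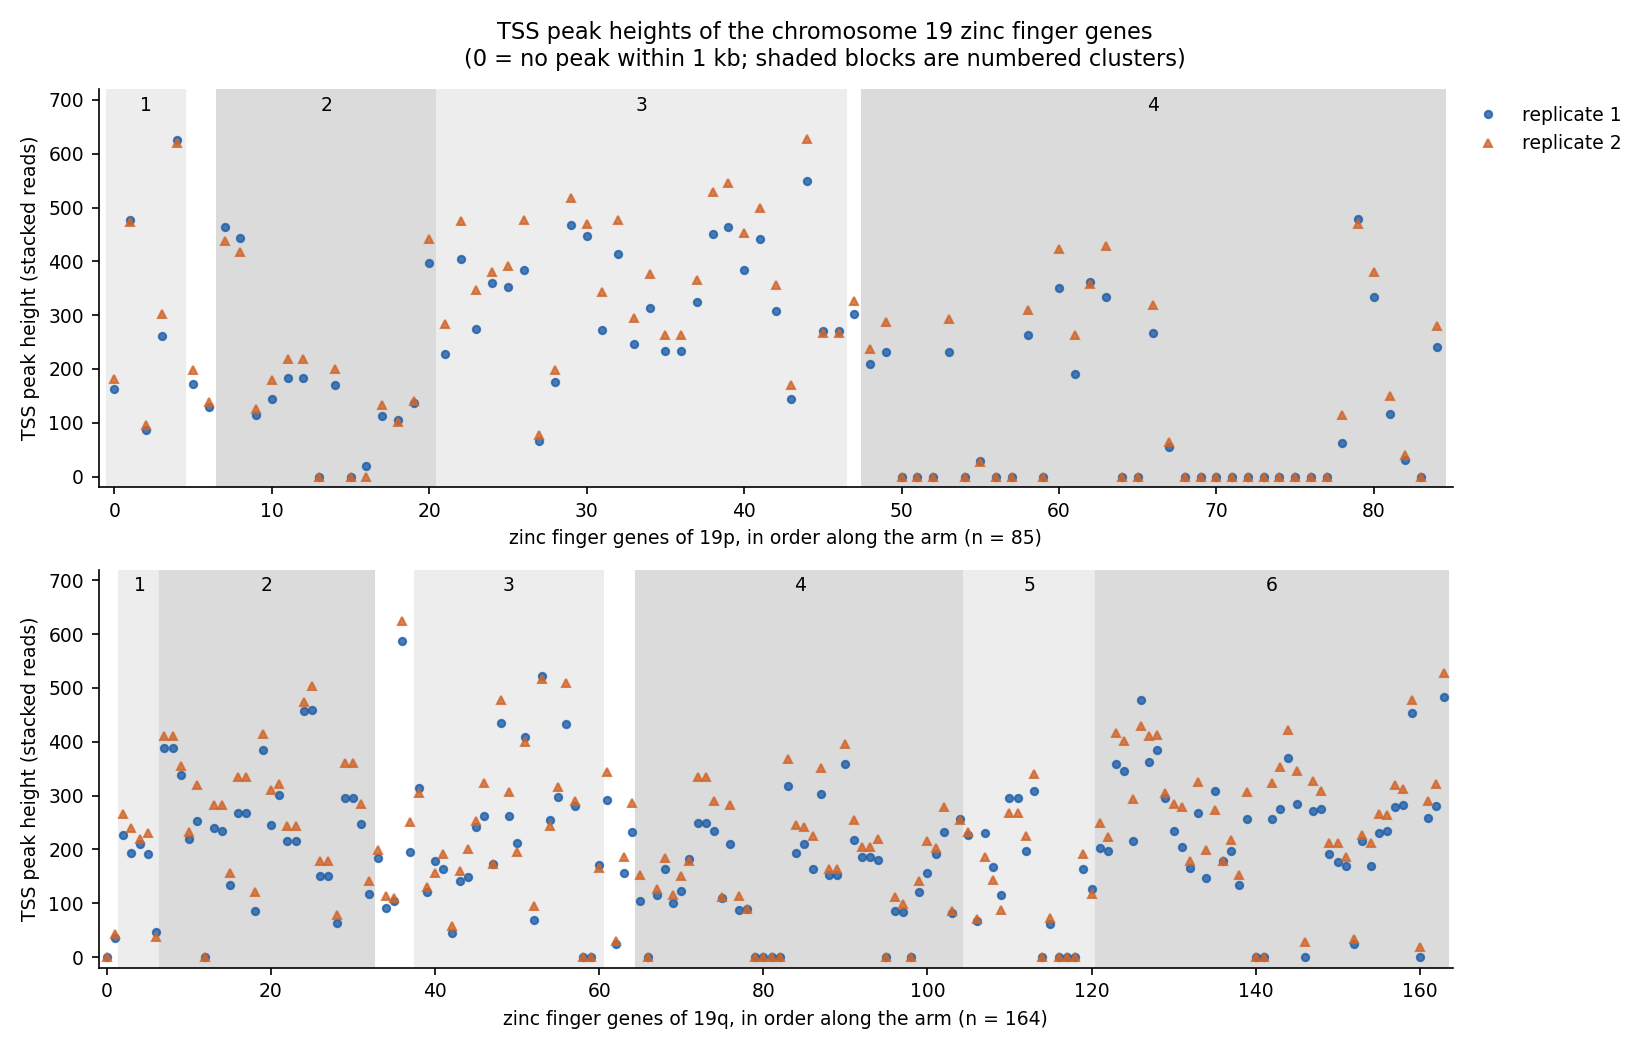
TSS peak height (y axis, stacked reads) of each of the 249 members in order along 19p (top, n = 85) and 19q (bottom, n = 164), with a point for each replicate and 0 for no peak. Shaded blocks are the numbered clusters; all 26 members of 19p cluster 3 have a peak, and 20 of the 37 members of 19p cluster 4 have none.

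Cluster 3 of 19p (chr19:11483427-12640098, ZNF653 to ZNF791) was open throughout. All 26 members had a TSS peak in both replicates, and the median height was 319 reads in replicate 1 and 371 in replicate 2, the highest of the 10 clusters. Heights ran from ZNF439, at 66 and 77 reads, to ZNF564, at 549 and 628. Clusters 1 of both arms were also open in full, each with 5 of 5 members. ZNF77 was the strongest of cluster 1 on 19p and ZNF302 (227 and 265 reads) the strongest of cluster 1 on 19q. In cluster 2 of 19p (chr19:8509678-9793180), 11 of 14 members were open, led by ZNF414 at 464 and 437 reads. ZNF177 and ZNF560 had no peak there.

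On 19q most clusters were open. Cluster 2 (chr19:36182276-37817300) had 25 of 26 members open, with ZNF527 the strongest at 459 and 504 reads and ZNF382 the peakless member. Cluster 3 (chr19:43525497-44500524) had 21 of 23, and ZNF285 and ZNF229, which are neighbours, were without a peak. Cluster 6 (chr19:57191500-58481230) had 39 of 43, with ZNF154 and ZNF671, again neighbours, peakless. Cluster 4 (chr19:51571283-53580269) had 33 of 40 open members with a median height of 180 and 204 reads, and its strongest member, ZNF320, reached 359 and 395. In cluster 5 (chr19:55476617-56671783) 12 of 16 were open, led by ZNF444 at 309 and 341 reads. Its 4 peakless members, ZNF582, ZNF667, ZNF471 and ZNF470, all had CpG-rich promoters.

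Some peakless members lay side by side. ZNF880, ZNF528, ZNF534 and ZNF578 followed each other in cluster 4 of 19q without a TSS peak, and the 147 kb from the start of the first to the end of the last held 0 peaks in replicate 1 and 1 peak of 18 reads in replicate 2. ZNF577, ZNF415 and ZNF677, also peakless at their start sites in that cluster, did not adjoin another peakless member. The span of ZNF577 held 7 and 10 peaks, the highest with 237 and 285 reads. ZNF667, ZNF471 and ZNF470 formed a run in cluster 5 with 0 peaks of any kind in either replicate. Of the 39 peakless members, 29 were more than 10 kb from the nearest peak in both replicates, and the median distance was 31252 bp in replicate 1 and 29491 bp in replicate 2. The distances ran from 1696 bp to 164802 bp, so most of these start sites were not cases of a peak just outside the 1 kb window.

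Cluster 4 of 19p (chr19:19668796-24129968), the block next to the centromere, held most of the peakless members. Of its 37 members, from ZNF101 to ZNF254, 17 (45.9%, 31.0 to 61.6) were open in both replicates and 20 had no peak in either. In order along the chromosome the peakless members of its first part were ZNF506, ZNF253, ZNF93, ZNF90, ZNF737, ZNF626, ZNF85, ZNF738 and ZNF493. Then followed 10 members in a row without a peak, ZNF43, ZNF208, ZNF257, ZNF676, ZNF729, ZNF98, ZNF492, ZNF99, ZNF723 and ZNF728. This run (chr19:21804946-23003176) held 6 peaks in replicate 1 and 7 in replicate 2, the highest with 74 and 84 reads. ZNF726 was the last peakless member of the cluster.

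Open members stood between them, most at heights common among members. ZNF430 had 350 and 422 reads, ZNF431 had 361 and 358, and ZNF708 had 334 and 428. On the centromeric side of the run of 10, ZNF724 had 478 and 470 reads and ZNF91 had 334 and 380. The median of the 17 open members was 232 reads in replicate 1 and 288 in replicate 2, near those of all open members. Weaker peaks were found at ZNF486 (29 and 27 reads), ZNF681 (30 and 40), ZNF100 (55 and 65) and ZNF730 (63 and 115). Peaks more than 1 kb from a protein-coding TSS were few in the cluster, 35.0 and 41.0 per Mb against 117 and 123 on 19p as a whole. This was common to the zinc finger clusters, of which none exceeded 65.7 per Mb in replicate 1 or 69.2 in replicate 2. Cluster 2 of 19p, with 11 of 14 members open, had 41.3 in both replicates. Cluster 2 of 19q, with 25 of 26 members open, had only 11.6 and 12.2.

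**Figure D4:**
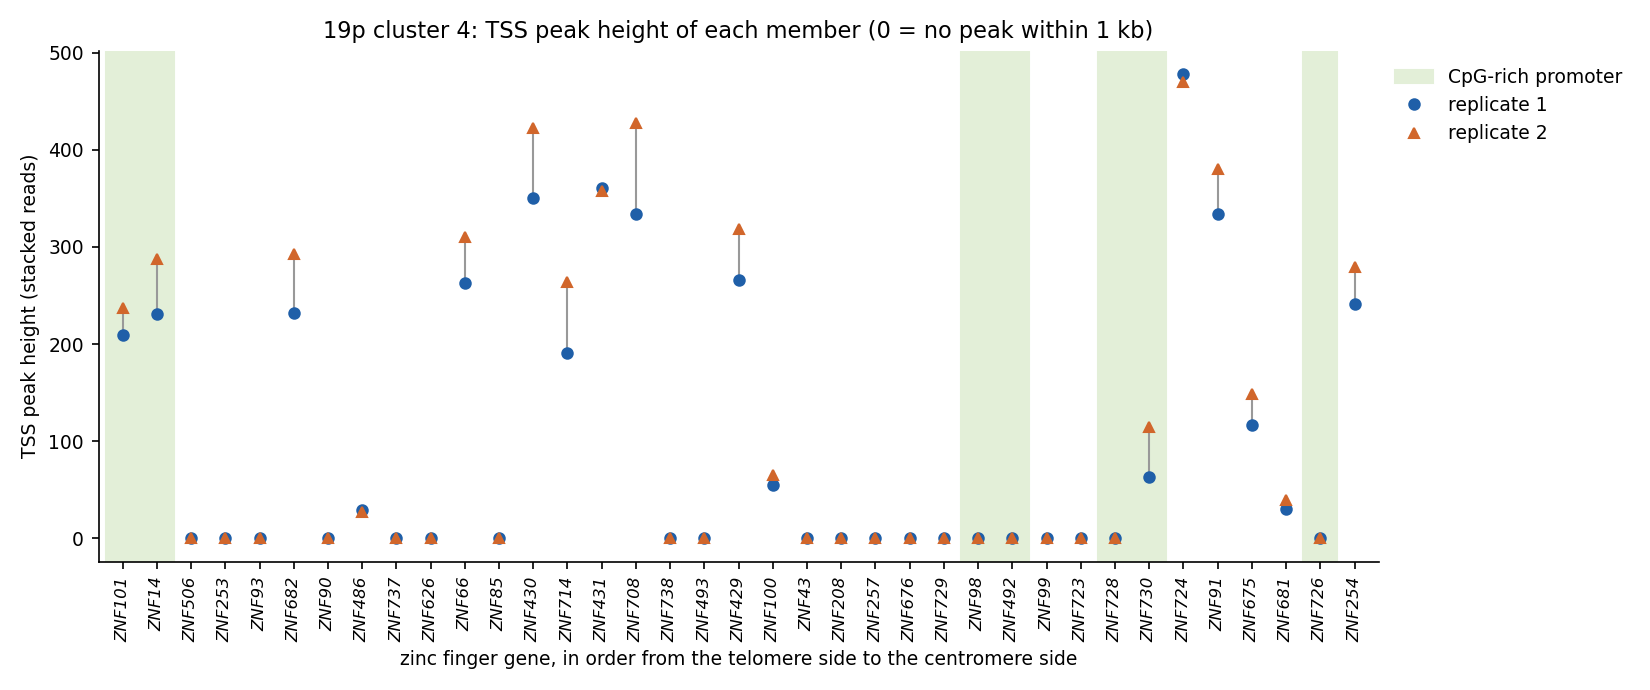
TSS peak height (y axis, stacked reads) of each of the 37 members of 19p cluster 4 in order along the chromosome, with a circle for replicate 1, a triangle for replicate 2, a line joining them, and 0 for no peak. Green bands mark the 7 CpG-rich promoters, of which 3 have a peak; open members such as ZNF430 (350 and 422) and ZNF91 (334 and 380) alternate with runs at 0.

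Sequence measures of open and peakless members overlapped within this cluster. The median CpG ratio was 0.513 in the 17 open members (0.457 to 0.763) and 0.550 in the 20 peakless ones (0.205 to 0.650), and the median GC content was 53.7% and 54.7%. The CpG-rich class held 3 of 17 open and 4 of 20 peakless members. The NF-Y box was present in 17 of 17 and 19 of 20, and the ETS core in 12 of 17 and 13 of 20. Each peakless promoter was aligned with the open promoters of the cluster, and its most similar open counterpart was 81.3% identical at the median (47.4% to 87.1%). Open promoters matched their most similar other open promoter of the cluster at a median of 80.1%.

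Outside this cluster the peakless members numbered 19 of 212, and their median CpG ratio was 0.764 against 0.723 in the open members. Fewer of them were CpG-rich, 10 of 19 against 140 of 190, and their median GC content was lower, 55.1% against 59.2%. The share of a TSS window made of 32 bp words that also occur elsewhere in the genome bears on how many reads can be placed there. Its median was 19.7% in peakless and 7.43% in open members of 19p cluster 4, and 0.619% in all open members. No member's window exceeded 50%, the highest being 45.5%, and that of an open member. The part of these repeated words in the missing peaks was not tested.

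Among members with known roles, both states occurred. ZNF91 and ZNF93 are repressors of primate retroelements in the same cluster, and ZNF91 was open with 334 and 380 reads while ZNF93 had its nearest peak 29489 bp from a TSS in replicate 1 and 29491 bp in replicate 2. ZNF649, another repressor of retroelements, had 116 and 127 reads. ZNF274, which binds the 3′ ends of zinc finger genes, had 169 and 212 reads, and ZNF331, an imprinted gene, had 256 and 254. ZNF350 (100 and 116 reads) and ZNF224 (212 and 195) encode KRAB repressors, and ZNF146 (388 and 411), a protein made almost only of fingers, shares its start region with ZNF565. ZNF536, a regulator of neuronal differentiation, had no TSS peak. Apart from ZNF93 and ZNF536 these role genes were thus open, between the 21.6th and 78.8th percentile of all open genes.

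Genes for partners of KRAB repression were open as well. All 17 cofactor genes examined (81.6% to 100%) had a TSS peak in both replicates, against 79.3% of all protein-coding genes and 92.9% of those with CpG-rich promoters, a share that this interval includes. TRIM28, the KRAB-binding corepressor, itself on chromosome 19, had 402 and 384 reads, and SETDB1, which methylates histone H3 at lysine 9, had 348 and 370. The heterochromatin protein genes CBX5 (800 and 877 reads), CBX1 (251 and 286) and CBX3 (213 and 194) and the DNA methyltransferase gene DNMT1 (462 and 624) were also open. The lowest was HDAC2, a histone deacetylase gene, with 71 and 85 reads. Of the members themselves, 178 encode a KRAB A box by its residue pattern and 143 of these (80.3%) were open, compared with 64 of 71 (90.1%) without it. Outside 19p cluster 4 these shares were 88.4% (82.1 to 92.6) and 92.4% (83.5 to 96.7), with overlapping intervals. This pattern misses some known KRAB genes such as ZNF224, and a pattern allowing leucine at its start, chosen after the values were seen, gave 158 of 195 and 49 of 54.

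Between their start sites and their 3′ ends the members held few peaks. A gene body peak was counted where its midpoint lay in the gene and it was more than 1 kb from every protein-coding TSS. In both replicates 98 members (39.4%, 33.5 to 45.5) had such a peak, against a background of 68.2% of all protein-coding genes, 60.4% of other chromosome 19 genes and 65.8% of ZNF genes elsewhere. Corrected for length, members held 4.21 and 4.67 gene body peaks per 100 kb (4.44 ± 0.323, SD, n = 2). Other genes of chromosome 19 held 16.8 ± 0.504, ZNF genes elsewhere 7.58 ± 0.111 and all genes 9.33 ± 0.396. The members' density differed from each of the others by far more than the spread between replicates, while the gene body peaks themselves were of like height, with medians of 32 and 33 reads in members and in all genes. Peakless members had 2.44 and 2.90 per 100 kb and open members 4.79 and 5.25. The peakless figure includes ZNF536, which alone held 26 and 27 such peaks. By members, 10 of 39 peakless ones had a gene body peak in both replicates, against 86 of 207 open ones.

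A few genes held many of these peaks, where a peak inside overlapping members, such as ZNF586 and ZNF552, was counted for each. The 5 members with the most carried 80 of 295 gene body peaks in replicate 1 and 92 of 327 in replicate 2. ZNF536 had 26 and 27 along a gene with no TSS peak, the highest an intronic peak at chr19:30664193-30664606 with 141 reads in replicate 1 and 201 in replicate 2. ZNF586 had 16 and 17, ZNF675 had 15 and 16, ZNF787 had 11 and 17, and ZNF254 had 12 and 15. The highest peaks inside ZNF586 (356 and 412 reads) and ZNF787 (310 and 333) were taller than the genes' own TSS peaks (276 and 354, and 197 and 225), and that of ZNF787 lay at the start of a Y RNA copy. No gene body peak at all was found in 144 members in replicate 1 and 140 in replicate 2.

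**Figure D5:**
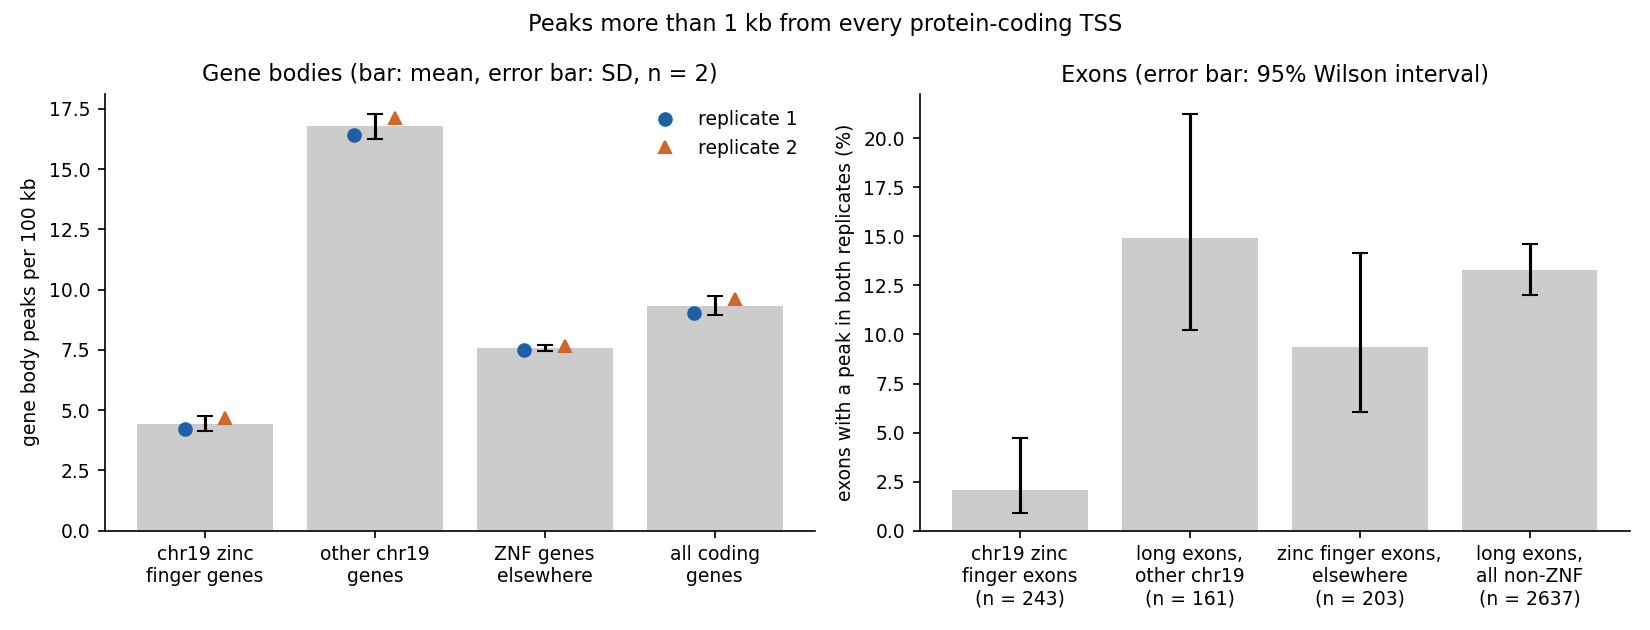
Left, gene body peaks per 100 kb for 4 gene sets, with bars for the mean, error bars for the SD (n = 2) and a point for each replicate; right, share of exons (%) with a peak in both replicates for zinc finger exons of members, long coding exons and zinc finger exons of ZNF genes elsewhere, with 95% Wilson intervals. The chromosome 19 zinc finger genes have the lowest bar in both panels, 4.44 peaks per 100 kb and 2.06% of exons.

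Peaks over the 3′ zinc finger exons were rare. The zinc finger exon was the coding exon of the canonical transcript that encodes the most C2H2 fingers, at least 3, and was found in 243 members, in 241 of them as the last coding exon. These exons had a median coding length of 1548 bp, and the members encode a median of 12 fingers and up to 36, in ZNF208. A peak more than 1 kb from every protein-coding TSS lay over 7 of them in replicate 1, 5 in replicate 2 and 5 (2.06%, 0.882 to 4.73) in both. The background was 13.3% of 2637 coding exons of at least 1 kb in genes other than ZNF, and 14.9% (10.2 to 21.2) of 161 such exons on chromosome 19. Zinc finger exons of ZNF genes on other chromosomes had 9.36% (6.07 to 14.2). This interval does not overlap that of the members, but both cover counting error only, exons of related genes are not replicates, and no test was made.

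The 5 members were ZNF296, ZNF552, ZNF575, ZNF574 and ZNF121. At ZNF296, with 6 fingers in this exon, a peak of 347 and 413 reads (chr19:45070904-45072212 in replicate 1) covered the 3′ end of the gene with its midpoint past the coding part. The peaks at ZNF552 (47 and 71 reads) and ZNF575 (34 and 51 reads) were also centred past the coding part or at its end. Only at ZNF574 (18 and 19 reads) and ZNF121 (18 and 16 reads) was the midpoint inside the fingers in both replicates, and these peaks were close to the lowest listed height. The tallest peak away from start sites whose midpoint lay inside a zinc finger exon had 34 reads, at ZNF575 in replicate 1. ZNF473 and ZNF628 had a peak of 18 reads over the exon in replicate 1 only. A further 2 members, ZNF875 (28 and 33 reads) and ZNF580 (296 and 267), had a peak over the exon in both replicates that lay within 1 kb of a TSS.

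The ZNF121 peak shows what such an exon looks like. Its bases in replicate 2 (chr19:9566015-9566183, hg38, coding strand, which is the minus strand) are given with the 15 bases for a linker between fingers, threonine-glycine-glutamate-lysine-proline, in capitals.
ZNF121 exon peak: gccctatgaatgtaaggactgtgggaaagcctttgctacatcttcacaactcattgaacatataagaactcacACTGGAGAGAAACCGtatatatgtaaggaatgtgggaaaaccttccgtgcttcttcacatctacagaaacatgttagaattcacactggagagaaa
Repeats of this kind make finger exons alike, and a median of 6.75% of the 32 bp words of the members' zinc finger exons occurred elsewhere in the genome, with 11 exons over 50%. For the long coding exons of other chromosome 19 genes the median was 0%. The part of this in the rarity of peaks was not tested.

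By covered bases the same order held. Leaving out positions within 1 kb of a protein-coding TSS, peaks covered 0.663% of the zinc finger exons in replicate 1 and 0.355% in replicate 2. They covered 0.758% and 0.769% of the members' other exons and 1.85% and 2.07% of their introns. In other genes of chromosome 19 the introns were covered to 7.88% and 8.25% and the long coding exons to 7.31% and 7.72%, and the chromosome as a whole to 5.30% and 5.58%. The whole genome, a lower standard than this chromosome, was covered to 2.84% and 3.02%. Low coverage was thus shared by exons and introns of the members, and in both replicates the zinc finger exons had the lowest value of these features. In replicate 1, however, the zinc finger exons differed from the members' other exons by less than their own replicates differed.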

How the data were processed

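ATAC-seq peak lists of both CAMA-1 replicates were analysed. Per the submitters' processing notes, the authors used Trim Galore 0.6.5, Bowtie2 2.3.5.1 and MACS2 2.2.6 on hg38, and each replicate had its own list. The MACS2 settings are not given in the sources used here. The authors deposited for each peak a fold enrichment, which is a ratio to background, together with −log10 p-values, −log10 q-values and a score, the latter equal to 10 times the −log10 q without its decimals. Values were not rescaled between replicates, and the lists do not give library depth. The fold enrichment was taken as (height + 1) / (background + 1): all values were whole multiples of 0.230 in replicate 1 and 0.221 in replicate 2 to within 7.91e-05 of a step, which gave backgrounds of 3.35 and 3.52 reads.

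Genes, TSSs and exons came from GENCODE release 44, and no peak ran past the end of an hg38 chromosome. The height of a gene was that of its highest peak overlapping the 1 kb on either side of any TSS by at least 1 bp. No test was made, since a single condition with 2 replicates offers none and genes are not replicates; Wilson intervals (95%) are given for shares and SDs over both replicates for levels. The functions were tested on simulated data, in which 300 of 300 TSS peaks and 200 of 200 gene body peaks placed on chromosome 19 genes were found. Alternatives were other distances from a TSS, stricter peak thresholds, a single TSS per gene, other measures of height, other rules for exon overlap, other cluster gaps, and the exclusion of readthrough genes, of members sharing a TSS region and of each replicate.

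The members and lists were chosen with earlier results of these data known. The genes named were the 5 strongest and 5 weakest open members, the first 12 peakless members along the chromosome, those with a peak in a single replicate, the 5 with most gene body peaks, those with a zinc finger exon peak, the strongest of each cluster, and members and cofactors of known role. Other members named, among them the remaining peakless ones, ZNF430, ZNF431, ZNF708, ZNF100, ZNF439, ZNF730, ZNF784, ZNF875 and ZNF580, were chosen after their values were seen. A SCAN domain pattern found 0 members and was not used. Python 3.11.15, numpy 2.4.6, scipy 1.17.1, pysam 0.24.0 and matplotlib 3.10.9 were used. 1 marker gene is not reported here. RNA, histone marks and copy number were not analysed here.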

Additional observations from a re-analysis of the deposited data

How the results depend on the processing

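Of 39 alternatives to 6 results, 32 left the value within 1.5-fold (counts) or within the spread between replicates (height). The number of members with a TSS peak in both replicates, 207, ranged from 149 of the 187 members that share no TSS region to 211 at 3 kb, and the 50000 strongest peaks of each replicate gave 181. Without 19p cluster 4, an alternative added after the data were seen, it was 190 of 212 (89.6%). The median height of 247.5 reads became 55.99 as a fold enrichment and 354 as a −log10 q, which are other units. The 98 members with a gene body peak fell to 65 when peaks had to be 3 kb from a protein-coding TSS. The 5 members with a zinc finger exon peak became 2 with the midpoint inside the exon, 2 with 50% of the peak inside it, 1 at 3 kb from a protein-coding TSS and 3 at a −log10 q of at least 10. Gaps of 250 kb and 1 Mb gave 12 and 9 clusters in place of 10. Without replicate 1 or without replicate 2 the counts were 208 to 209 for TSS peaks, 105 to 109 for gene body peaks and 5 to 7 for zinc finger exon peaks, and the median height was 230.5 to 264 reads. No paired analysis was possible because the replicates are 2 samples of the same condition. A missing peak means a height under the threshold of the peak caller, whose lowest listed height was 11 reads. The lists alone cannot tell a closed promoter from one in which few reads could be placed or few copies remain, and 2 replicates limit the precision of every SD.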

Other observations

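An octamer, ATGCAAAT on either strand, was looked for after the promoters had been read. It occurred in the promoter window of 13 of 249 members (5.22%), of 2.63% of ZNF genes on other chromosomes and of 1.62% of all protein-coding genes. All 13 lay in neighbouring clusters of 19p, 9 of them among the 26 members of cluster 3 and 4 among the 37 of cluster 4, and none of the other 186 members had it. In cluster 3 these were ZNF441, ZNF69, ZNF700, ZNF763, ZNF844, ZNF625 with its readthrough symbol, ZNF442 and ZNF564, all open. In cluster 4 they were ZNF682, ZNF430 and ZNF724, which were open, and ZNF257, which had no peak. The letters were chosen from these sequences, members of a cluster are related copies, and no test was made.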
